A study of Mus musculus with 16 samples.

Results

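Loss of the microRNA miR-133b was examined in muscle that has dystrophin, by comparing 4 miR-133b-/- libraries with 4 Control libraries over all 831 genes of the deposited expression table. No gene passed the test at an adjusted p of 0.05 (0 of 831, 0%; limma, smallest adjusted p = 0.504), and 70 genes (8.42%) had an unadjusted p under 0.05. The point estimate lay within 2-fold of Control for 808 genes. The 95% interval lay wholly inside 2-fold, above and below, for 567 genes (68.2%), and inside 1.5-fold for 102 (12.3%). For these 567 genes a 2-fold change in either direction lay outside the interval, while 1.5-fold changes in both directions lay outside it only for the 102.

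RNA came from whole tibialis anterior, a hindlimb muscle made mostly of fast fibres, at postnatal day 30. Control mice are labelled wild type. The miR-133b-/- mice are labelled only with loss of that microRNA, and no change at Dmd, the dystrophin gene, is named for either group. The code in the sample title put each of the 8 libraries in its group and gave its replicate number. They are 8 of 16 in the series; the others come from mdx mice, which have a mutation in Dmd and are a model of Duchenne muscular dystrophy, and from mdx/miR-133b-/- mice, which carry both changes. Strain, sex, the design of the miR-133b allele and the number of animals behind each library are not stated in the labels used here.

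MicroRNAs are short RNAs that guide a silencing complex to messenger RNAs, chiefly by pairing of the seed, the bases from position 2 to 8, with the 3′ UTR. Paired messengers are translated less or degraded, and single targets usually change little. The miR-133 family is abundant in skeletal and cardiac muscle, where it is known for roles in myoblast growth and differentiation. The gene for miR-133b lies beside that for miR-206, another muscle microRNA, and the pair can be made from a common transcript.

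The mature sequences show that these neighbours have unlike seeds, so that their predicted targets differ. Both are given from RefSeq (GRCm38.p6), 5′ to 3′, with the seed in capitals. The first lies at chr1:20682834-20682855 and the second at chr1:20679055-20679076, both on the plus strand.
mmu-miR-133b-3p: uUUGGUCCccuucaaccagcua
mmu-miR-206-3p: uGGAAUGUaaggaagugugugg

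The match to the miR-133b seed is GGACCAA, and with a further A it is the 8mer GGACCAAA. Each was searched on the transcribed strand of the longest annotated 3′ UTR of each gene (GENCODE M21, GRCm38), and every 8mer also counts as a 7-base match. Of 779 listed genes with an annotated 3′ UTR, 67 (8.6%) held the 7-base match and 20 (2.57%) the 8mer. These counts depend on which transcripts supply the 3′ UTR. Over all 21045 genes of the annotation with a 3′ UTR, of any length, the shares were 7.73% and 2.67%. The sites printed below, with the match in capitals, are 8mer sites of 2 genes with a positive estimate (Mme and Lsp1) and of 2 with a negative one (Ppfia4 and Fam49a), and both sites of Egfr, a proposed target of miR-133. The sites lie at chr3:63383043-63383070 (plus strand), chr7:142494832-142494859 (plus), chr1:134298407-134298434 (minus), chr12:12375263-12375290 (plus), chr11:16911898-16911925 (plus) and chr11:16918076-16918103 (plus), in the order given. A match is a description of the sequence and not evidence that the site is used.
Mme: caggaaacaaGGACCAAAattctaacaa
Lsp1: ttccttacttGGACCAAAataaacctga
Ppfia4: ccaggatcccGGACCAAAgactgagatg
Fam49a: ctattaaatgGGACCAAAtgtgtgtatg
Egfr, first site: tagaatcccaGGACCAActatggcagca
Egfr, second site: ggtgctgtgtGGACCAAtgagctgtatt

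The values are reads per gene that the authors multiplied by 1 factor per library, called scaled reads here. Reads in the listed genes numbered 3219038 to 4317386 per Control library and 2699028 to 6000033 per miR-133b-/- library, and the total depth is unknown. Fast fibre genes were abundant in all 8, with summed scaled reads of Myh4, Actn3, Pvalb and Ckm from 592292 to 730110 in Control and from 314869 to 730433 in miR-133b-/-. None of Mir133b (chr1:20682769-20682887), Mir206 (chr1:20679010-20679082), Dmd (chrX:82948870-85206141) and Utrn, the gene of the dystrophin homologue utrophin, is among the listed genes. The genotypes could therefore not be checked from the table.

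The listed genes are a selection that used the miR-133b-/- libraries. In every gene the mdx/miR-133b-/- mean differs from the miR-133b-/- mean by at least 1.72-fold (smallest ratio 1.717), either way. Of the 498 genes higher in mdx/miR-133b-/-, 353 had a miR-133b-/- estimate below Control and 145 above, with a median log2 difference of -0.17. Of the 333 genes lower there, 210 lay above Control and 123 below, with a median of 0.10. The first class held 37 of the 38 lower genes at an unadjusted p under 0.05, and the second held 28 of the 32 higher ones. This split shares the miR-133b-/- libraries with the comparison and is given as a description. The intervals below make no allowance for the selection, and genes outside the list were not analysed here.

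The spread between replicates was wider in miR-133b-/- than in Control. The median standard deviation (SD) of log2(value + 1) over genes was 0.427 in miR-133b-/- and 0.272 in Control, and it was the larger in miR-133b-/- for 611 genes (73.5%). The miR-133b-/- SD was more than 2 times that of Control for 290 genes, against 41 genes the other way. Without each miR-133b-/- library in turn the median was between 0.373 (without replicate 2) and 0.439 (without replicate 4), and without each Control library between 0.216 and 0.275. The wider spread thus did not rest on 1 library.

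On the first principal component of the 8 libraries (31.5% of variance) miR-133b-/- replicate 1 stood at 15.9 and replicate 3 at 9.15. The other 6 libraries lay between -6.35 and -0.78, with miR-133b-/- replicates 2 and 4 at -5.18 and -1.51 among the Controls. On the second component (22.7%) Control replicate 1 stood at 8.9 and the other Controls between -3.7 and -1.5. Of miR-133b-/-, replicates 1 and 2 stood at -8.3 and -8.2 there, and replicates 3 and 4 at 7.2 and 7.3. The Spearman rho over genes between GC content and the difference from the Control mean was -0.394 in miR-133b-/- replicate 1. It was -0.246 in replicate 2, close to Control replicate 2 at -0.203, and 0.078 and 0.068 in replicates 3 and 4. Control values ran from -0.203 to 0.124, each set against a mean that includes that library. With transcript length, rho was -0.129, 0.232, -0.155 and -0.232 in miR-133b-/- replicates 1 to 4. In Control it ran from -0.22 to 0.182. After removal of the trend with GC content and length in each library, 0 genes passed and 70 had an unadjusted p under 0.05. The median log2 difference over all genes moved from -0.07 to 0.03. This removal also set every library to the same mean over genes, which by itself can shift the median and single estimates.

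The genes with the largest and smallest ratio of miR-133b-/- SD to Control SD were picked as extremes and are given as examples. What lies behind the median SDs was not tested. Psmd12, a subunit of the proteasome lid, stood at 3639, 3286, 3378 and 3210 scaled reads in Control and at 10056, 2830, 2943 and 3422 in miR-133b-/-. Cox5a, a subunit of cytochrome c oxidase, stood at 21056, 20081, 19595 and 21123 in Control and at 30222, 14387, 13179 and 22334 in miR-133b-/-. C1qtnf9, a secreted protein related to adiponectin, stood at 856, 819, 844 and 863 in Control and at 865, 1079, 642 and 544 in miR-133b-/-. A single library is far above the rest for Psmd12, while for Cox5a and C1qtnf9 the miR-133b-/- libraries lie on both sides of a tight Control group. Atp6v0e2, a subunit of the proton-pumping V-ATPase, showed the same form, at 212, 215, 194 and 209 in Control and at 107, 95.7, 218 and 252 in miR-133b-/-. The log2 differences of these 4 genes were 0.29, -0.11, -0.16 and -0.43, each with a 95% interval that held 0.

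The opposite form, a tight miR-133b-/- group beside a wide Control group, was rarer. Npy1r, a receptor for neuropeptide Y, stood at 113, 135, 240 and 314 in Control and at 259, 270, 252 and 215 in miR-133b-/-. Slc40a1, the iron exporter ferroportin, stood at 1332, 876, 671 and 735 in Control and at 1138, 1039, 1236 and 1021 in miR-133b-/-. Lama2, a laminin chain that binds the dystrophin complex, stood at 901, 1425, 1349 and 1264 in Control and at 1058, 1159, 1038 and 1139 in miR-133b-/-. The miR-133b-/- values lay inside the Control range for all 3 genes. Their log2 differences were 0.43, 0.34 and -0.15, and again no interval left out 0.

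**Figure D1:**
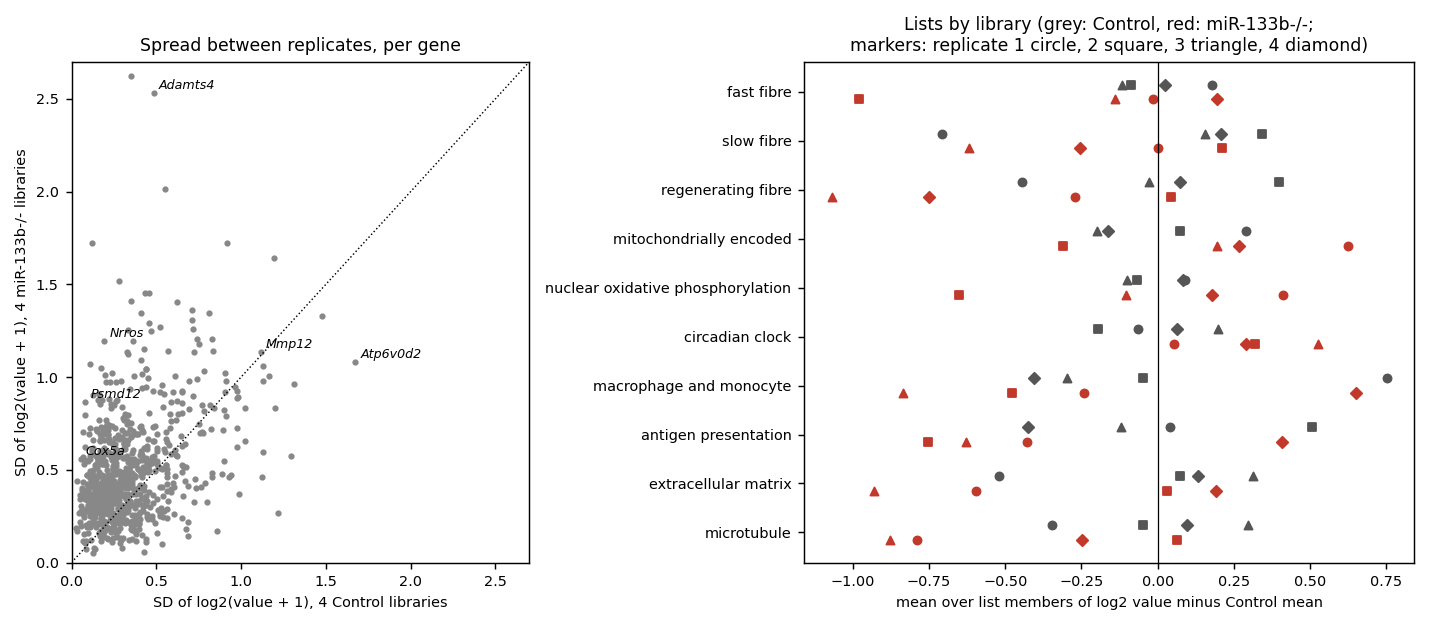
Left, the SD of log2(value + 1) over 4 Control libraries (x) and over 4 miR-133b-/- libraries (y), 1 point per gene, with the dotted line of equal SD; 611 of 831 points lie above it. Right, the mean log2 value minus the Control mean over the members of 10 gene lists, 1 marker per library; miR-133b-/- replicate 2 is lowest for the fast fibre list at -0.98 and replicate 3 for the regenerating fibre list at -1.07.

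Over all 831 genes the median log2 difference, miR-133b-/- minus Control, was -0.07, with quartiles of -0.28 and 0.15. Estimates were positive for 355 genes (42.7%) and negative for 476. They ranged from -2.61 for Adamts4, a protease of the extracellular matrix, to 1.5 for Ccl7, a chemokine that draws monocytes; these 2 are low in reads, and Ccl7 is named for this extreme after its value was seen. Adamts4 stood at 17.2, 25.9, 25.6 and 40.3 scaled reads in Control and at 0, 29.3, 0 and 11.8 in miR-133b-/-. Ccl7 stood at 15.7, 7.58, 8.78 and 13.4 in Control and at 26, 42.8, 8.83 and 109 in miR-133b-/-. The groups overlap in both genes. The Adamts4 estimate was -1.09 with a pseudocount of 10 and -3.10 with 0.5, and it ran from -3.53 (without miR-133b-/- replicate 2) to -1.89 (without replicate 1 or 3) when single libraries were left out.

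Of the 70 genes at an unadjusted p under 0.05, 32 (3.85% of those listed) were higher and 38 (4.57%) lower, and 13 had a p under 0.01. In 39 genes (4.69%) the groups did not overlap, with miR-133b-/- above in 23 (2.77%) and below in 16 (1.93%). The count of 70 moved with single libraries. It was 34 without Control replicate 2 and 34 without Control replicate 3, 44 without miR-133b-/- replicate 1 and 109 without miR-133b-/- replicate 2. With limma-voom on the unscaled reads 0 genes passed and 65 had an unadjusted p under 0.05.

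**Figure D2:**
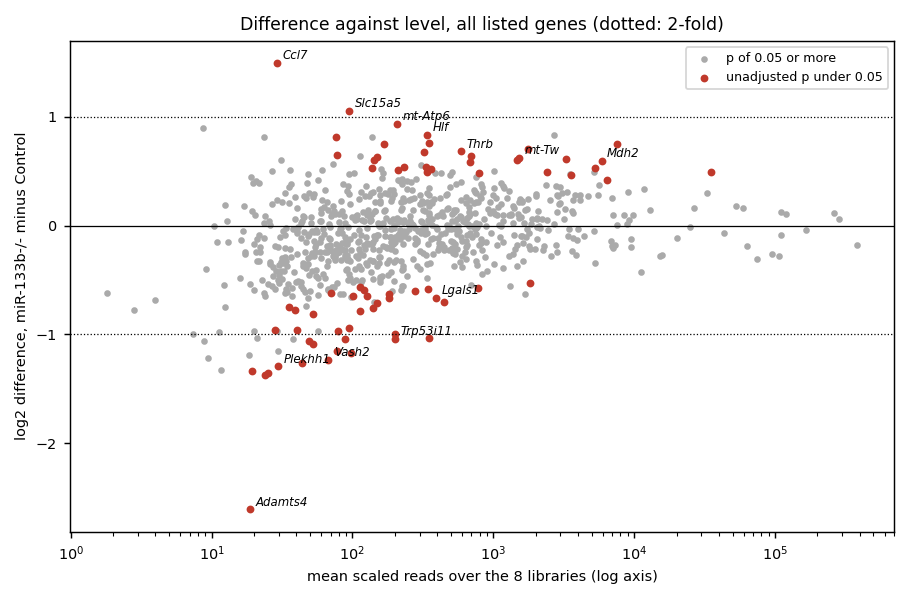
The log2 difference, miR-133b-/- minus Control (y), against the mean scaled reads over the 8 libraries (x, log axis), 1 point per listed gene; red marks the 70 genes at an unadjusted p under 0.05. The dotted lines mark 2-fold, and 808 of 831 points lie between them.

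The 6 smallest p-values among genes with positive estimates were those of mt-Atp6, Hlf, Efcab2, Thrb, mt-Tw and Mdh2. In all 6 the groups did not overlap, with miR-133b-/- above, beside 2.77% of all genes. The p-values and the separation come from the same 8 libraries, so this choice of genes by itself favours separate groups. mt-Atp6, the ATP synthase subunit that the mitochondrial genome encodes at 7927 to 8607, stood at 134, 190, 148 and 101 scaled reads in Control and at 249, 249, 245 and 340 in miR-133b-/-. The log2 difference was 0.93 (95% interval 0.41 to 1.45, unadjusted p = 0.00164, adjusted p = 0.504). The lowest miR-133b-/- library lay above the highest Control library. The gene overlaps its neighbour on the mitochondrial genome, and no source used here says how reads that fall on both genes were counted. Its values were also small beside the summed scaled reads of all genes with mt- symbols. Those sums ran from 720220 to 1163332 in Control and from 646895 to 1318023 in miR-133b-/-. The value of mt-Atp6 is therefore uncertain.

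Hlf, a clock-controlled transcription factor (chr11:90336536-90390895), stood at 212, 302, 235 and 228 scaled reads in Control and at 440, 341, 539 and 429 in miR-133b-/-. This gave a log2 difference of 0.83 (0.36 to 1.30, unadjusted p = 0.00182). Every miR-133b-/- library lay above every Control library, and the value stayed between 0.73 and 0.95 without each library in turn.

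Thrb, a nuclear receptor for thyroid hormone (chr14:17660261-18038090), stood at 455, 397, 426 and 516 in Control and at 917, 774, 698 and 534 in miR-133b-/-. Its log2 difference was 0.68 (0.22 to 1.15, unadjusted p = 0.00655). The gap between groups was narrow, from 516 in Control replicate 4 to 534 in miR-133b-/- replicate 4. Efcab2, which codes for an EF-hand protein (chr1:178406085-178484513), stood at 263, 233, 257 and 271 in Control and at 562, 461, 452 and 298 in miR-133b-/-, with a log2 difference of 0.76 (0.27 to 1.24, unadjusted p = 0.00469). In both genes replicate 4 was the lowest of the miR-133b-/- libraries and replicate 1 the highest.

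Mdh2, the malate dehydrogenase of the citric acid cycle (chr5:135778480-135790398), stood at 4587, 4354, 4646 and 5007 in Control and at 8868, 6459, 7552 and 5575 in miR-133b-/-. Its log2 difference was 0.59 (0.17 to 1.02, unadjusted p = 0.00972). Mdh2 is thus a well-read gene with separate groups, and a 2-fold increase lay just inside its interval. mt-Tw, the mitochondrial tRNA for tryptophan (mitochondrial genome, 4950 to 5016), stood at 1299, 1214, 1020 and 1220 in Control and at 1885, 1852, 2267 and 1406 in miR-133b-/-, a log2 difference of 0.63 (0.19 to 1.06, unadjusted p = 0.00793). With the GC and length trend removed, mt-Tw had 0.26 (unadjusted p = 0.408).

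Among genes with negative estimates, the smallest p-values belonged to low and moderately read genes. The groups were separate in 4 of 6, beside 1.93% of all genes with miR-133b-/- below, and the choice by p-value again favours this. Vash2, a tubulin carboxypeptidase that removes the last tyrosine of alpha-tubulin (chr1:190947646-190979296), stood at 110, 107, 89.9 and 67.9 in Control and at 31, 29.98, 33.8 and 70.1 in miR-133b-/-. The log2 difference was -1.24 (-1.93 to -0.54, unadjusted p = 0.00175, adjusted p = 0.504). The groups overlap through miR-133b-/- replicate 4, which lay above Control replicate 4. Trp53i11, a gene induced by p53 (chr2:93187548-93201759), stood at 331, 296, 280 and 166 in Control and at 94, 161, 90.5 and 183 in miR-133b-/-, a log2 difference of -1.04 (-1.67 to -0.41, unadjusted p = 0.00295). Here too replicate 4 of each group made the overlap.

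Lgals1, which codes for the sugar-binding protein galectin-1 (chr15:78926725-78930465), stood at 537, 480, 497 and 405 in Control and at 292, 292, 270 and 355 in miR-133b-/-. This gave a log2 difference of -0.67 (-1.10 to -0.23, unadjusted p = 0.00517). Its groups did not overlap, and the value stayed between -0.75 and -0.61 without each library in turn. Fam129b, of the Niban family (chr2:32876114-32925254), stood at 91.5, 94.1, 101 and 128 in Control and at 38, 68.5, 41.2 and 67.8 in miR-133b-/-, a log2 difference of -0.97 (-1.58 to -0.36, unadjusted p = 0.00404). Its groups were likewise separate.

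Plekhh1, a protein with pleckstrin homology and FERM domains (chr12:79029163-79081655), stood at 38.6, 44.2, 51.2 and 33.6 in Control and at 26, 21.4, 12.5 and 9.95 in miR-133b-/-. The log2 difference was -1.29 (-2.13 to -0.46, unadjusted p = 0.00491). Tmem132a, a transmembrane protein (chr19:10857822-10869940), stood at 97.9, 133.3, 111 and 120 in Control and at 29, 82.8, 47.8 and 81.5 in miR-133b-/-, a log2 difference of -1.04 (-1.74 to -0.34, unadjusted p = 0.00642). Both were separate between groups but had few reads, and their intervals spanned more than 1 log2 unit.

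**Figure D3:**
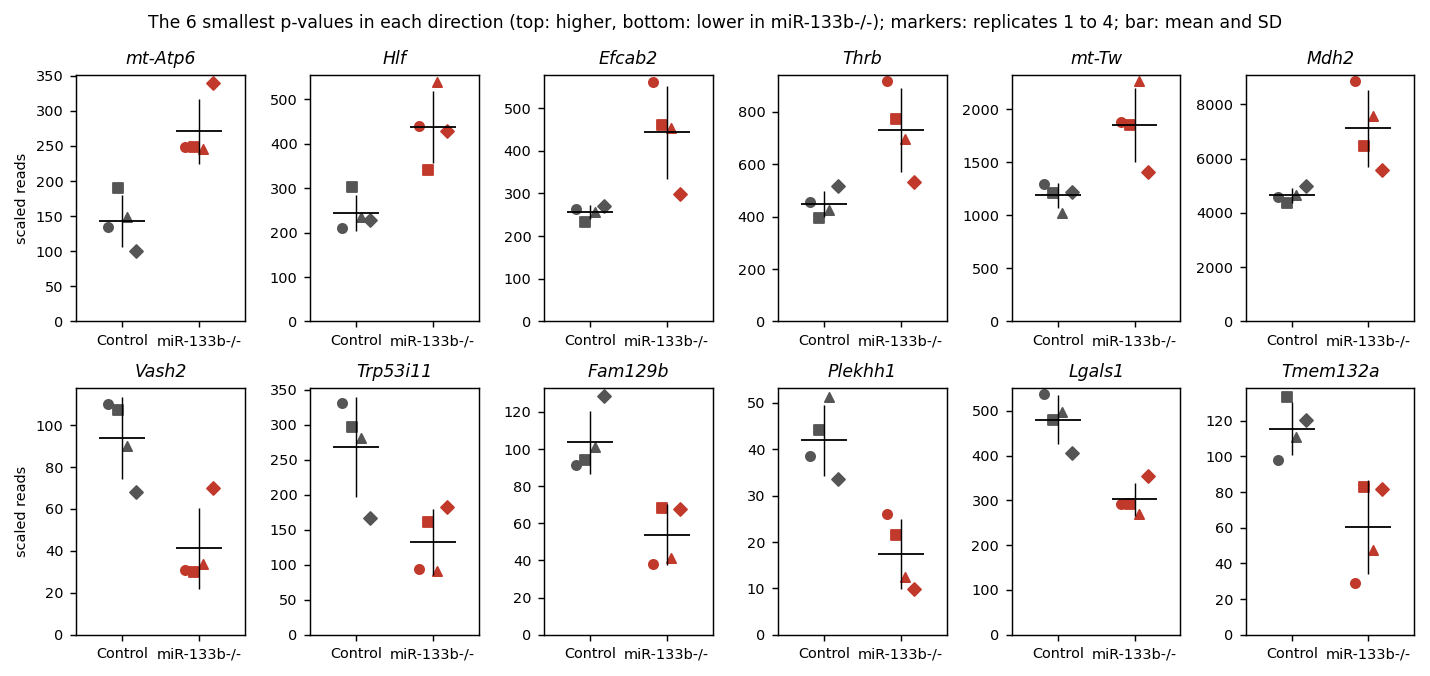
Scaled reads in each library (y, from 0) for the 6 genes with the smallest p-values in each direction, with 1 marker shape per replicate number, the group mean as a bar and the SD as a line. The groups overlap in Vash2 and Trp53i11 and are separate in the other 10 genes, which were picked by p-value (all 831 genes, 4.69% separate).

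The largest differences at a mean of 50 scaled reads or more were mostly in genes whose groups overlapped. Slc15a5, of the peptide transporter family, stood at 137, 52.4, 24.9 and 57.5 in Control and at 165, 94.2, 99.3 and 130 in miR-133b-/-, a log2 difference of 1.06 (0.19 to 1.92). Amd1, an enzyme of polyamine synthesis, stood at 4257, 1029, 918 and 2092 in Control and at 5706, 1962, 3006 and 2557 in miR-133b-/-, a log2 difference of 0.84 (-0.06 to 1.74). In both genes Control replicate 1 was far above the other Controls. Without Control replicate 3 the Slc15a5 estimate was 0.67. That of Amd1 was 1.28 without Control replicate 1, 0.54 without Control replicate 3 and 0.54 without miR-133b-/- replicate 1. On the negative side, Nrros, which holds latent TGF-beta on myeloid cells, stood at 144, 139, 113 and 112 in Control and at 17, 52.1, 90.5 and 115 in miR-133b-/-, a log2 difference of -1.17 (-2.12 to -0.22). Tubb6, a beta-tubulin, stood at 62.2, 78.3, 148 and 121 in Control and at 19, 99.9, 24.3 and 72.5 in miR-133b-/-, a log2 difference of -1.15 (-2.16 to -0.15). Replicate 1 was the lowest miR-133b-/- library in both, and without it the Nrros estimate was -0.62. With library quality weights Nrros had -0.695.

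How large an effect the comparison leaves outside its intervals was counted gene by gene, on the log2(value + 1) scale. The half-width of the 95% interval had a median of 0.585 log2 units, a 1.5-fold change, with quartiles at 1.41-fold and 1.64-fold. Its 10th and 90th percentiles were 1.37-fold and 1.97-fold. Increases of 2-fold or more lay outside the interval for 738 genes (88.8%), and decreases of 2-fold or more for 644 (77.5%). For changes of 1.5-fold or more the counts were 456 genes (54.9%) for increases and 354 (42.6%) for decreases. For 4-fold they were 829 (99.8%) and 807 (97.1%). No gene had an interval inside 1.25-fold, 770 (92.7%) had one inside 3-fold and 805 (96.9%) inside 4-fold. With intervals widened to hold over all listed genes at once (Bonferroni), the median half-width was 2.84-fold, no gene lay inside 2-fold, 285 (34.3%) lay inside 3-fold and 551 (66.3%) inside 4-fold.

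**Figure D4:**
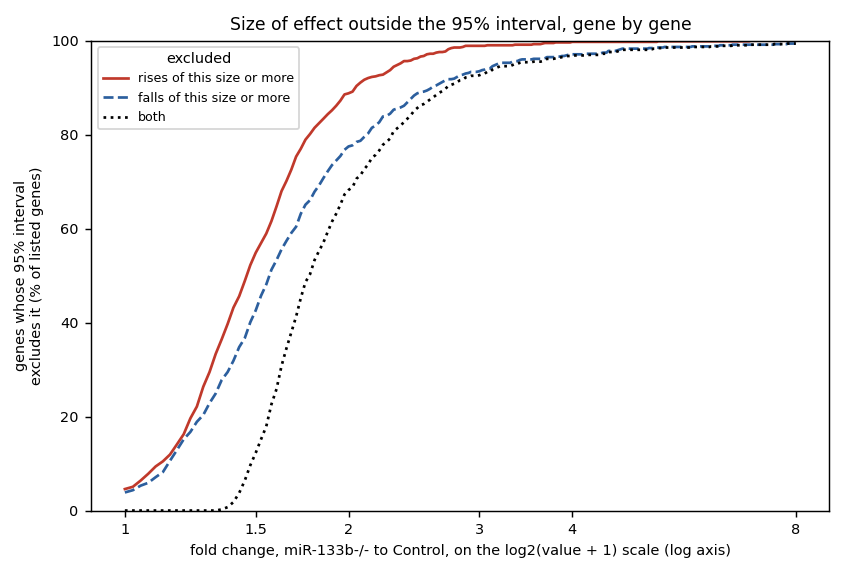
The percentage of listed genes (y) whose pointwise 95% interval leaves out an increase, a decrease or both of a given fold or more (x, log axis). At 2-fold the curves stand at 88.8% for increases, 77.5% for decreases and 68.2% for both.

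The size left outside depended on how deeply a gene was read. When the genes were put in 4 classes by mean level, 64 of 208 genes (30.8%) in the lowest class (1.82 to 69.0 scaled reads) had an interval inside 2-fold, and the median half-width was 1.78-fold. In the next classes it was 144 of 208 (69.2%) and 173 of 207 (83.6%). In the highest class (679 scaled reads or more) it was 186 of 208 (89.4%), with a median half-width of 1.4-fold. Among the tightest genes was Flt1, a receptor for vascular endothelial growth factor on endothelium, which stood at 1687, 1701, 2039 and 1826 in Control and at 2263, 2184, 2077 and 2203 in miR-133b-/-. Its groups were separate, the lowest miR-133b-/- value of 2077 lying above the highest Control value of 2039, with a log2 difference of 0.27 (-0.12 to 0.66). Amz2, a metallopeptidase, stood at 2115, 1895, 1932 and 1984 in Control and at 2422, 2009, 2117 and 2167 in miR-133b-/-, a log2 difference of 0.13 (-0.25 to 0.52). Eif2b5, the catalytic subunit of a translation initiation factor, had 0.10 (-0.30 to 0.49), and Abcd2, a peroxisomal fatty acid transporter, -0.02 (-0.42 to 0.38).

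Of the 4 widest intervals, 1 was that of Adamts4 and the other 3 were in macrophage genes with few or no reads in these 8 libraries. Mmp12, macrophage elastase, stood at 3.57, 1.26, 0 and 4.48 scaled reads in Control and at 0, 4.28, 0 and 0.95 in miR-133b-/-, with an interval from -3.22 to 1.99. Atp6v0d2, a V-ATPase subunit of osteoclasts and macrophages, stood at 12.9, 3.79, 0.73 and 0 in Control and at 0, 0, 2.94 and 2.37 in miR-133b-/-, with an interval from -3.38 to 1.82. Itgax, the integrin CD11c, had an interval from -2.71 to 1.34. No difference in these genes was detectable at this depth, over a range of several fold in both directions.

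Gene lists of muscle, metabolic and other cell types were then read for their listed members. Of 30 lists, 23 had at least 1 member among the listed genes, 103 genes in all, and 7 had none (cell cycle, erythrocyte, Schwann cell, adipocyte, pericyte and smooth muscle, neutrophil and satellite cell). No list member passed, and 10 of the 103 had an unadjusted p under 0.05, a share near the 8.42% of all genes. The mdx values of each list are set beside them as a description. They come from the mdx against Control fit, which shares the 4 Control libraries, and in which 646 of 831 genes (77.7%) passed at an adjusted p of 0.05. Every listed gene differs by at least 1.72-fold between mdx/miR-133b-/- and miR-133b-/-, so the list favours genes that change with dystrophin loss. A high mdx share and large mdx medians are thus partly built in. They are no fair measure of the relative size of the effects. For the direction of a list, the selection of the genes gives a scale. Of the 498 genes higher in mdx/miR-133b-/- than in miR-133b-/-, 353 had a negative estimate. Of the 333 lower there, 210 had a positive one. In bulk muscle, fewer cells of a type and less RNA per cell cannot be told apart.

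Genes of the contractile and excitable fibre had negative medians. All 4 listed fast fibre genes had negative estimates, with a median log2 difference of -0.23 (all 831 genes, -0.07) and all 4 intervals inside 2-fold; the mdx median was -0.49. Ckm, the muscle creatine kinase, stood at 135826, 116597, 108530 and 103314 scaled reads in Control and at 90143, 68876, 103931 and 126005 in miR-133b-/-, a log2 difference of -0.28 (-0.79 to 0.22). The mean log2 value of the list over libraries was 0.18, -0.09, -0.12 and 0.02 in Control and -0.02, -0.98, -0.14 and 0.19 in miR-133b-/-, each against the Control mean. Replicate 2 alone lay below the Control range by a large step. Of 4 slow fibre genes 3 were negative, with a median of -0.17 and an mdx median of 1.71. Atp2a2, the calcium pump of slow fibres, stood at 1025, 1210, 1140 and 1184 in Control and at 948, 1028, 689 and 927 in miR-133b-/-, a log2 difference of -0.36 (-0.78 to 0.07).

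Of 5 listed genes of the neuromuscular junction, 4 had negative estimates and 4 an interval inside 2-fold, with a median of -0.35 against 1.46 in mdx. Of the 498 genes higher in mdx/miR-133b-/- than in miR-133b-/-, 353 had a negative estimate. Chrna1, the alpha subunit of the muscle acetylcholine receptor, stood at 329, 443, 385 and 371 in Control and at 331, 308, 251 and 307 in miR-133b-/-, a log2 difference of -0.35 (-0.79 to 0.09). The groups overlap only through Control replicate 1 and miR-133b-/- replicate 1. For Ncam1, a neural adhesion molecule of denervated and regenerating fibres, the values were 149, 222, 216 and 208 in Control and 162, 193, 191 and 163 in miR-133b-/-, a log2 difference of -0.15 (-0.63 to 0.32).

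Among 4 listed genes of the dystrophin complex the median was -0.13, and all 4 intervals lay inside 2-fold. Sntb1, the beta-1 syntrophin, stood at 169, 171, 170 and 178 in Control and at 159, 129, 136 and 120 in miR-133b-/-. The groups did not overlap, and the log2 difference was -0.35 (-0.80 to 0.11, unadjusted p = 0.129). The Control values of Sntb1 lay between 169 and 178. Cdkn1a, a cell cycle inhibitor raised in stressed muscle, had the smaller p of the 2 listed genes of atrophy and growth arrest, with a log2 difference of -0.50 (-1.27 to 0.28) against 1.5 in mdx.

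The regenerating fibre list, of embryonic fibre proteins and regulators of fusion, had 8 listed members. Of these 6 were negative and 3 had an interval inside 2-fold, and the median of -0.435 stood beside 2.35 in mdx, where all 8 passed. For scale, 353 of the 498 genes higher in mdx/miR-133b-/- than in miR-133b-/- had a negative estimate. Myog, the differentiation factor myogenin, stood at 42.2, 60.7, 70.2 and 93.3 in Control and at 19, 72.8, 10.3 and 51.6 in miR-133b-/-, a log2 difference of -1.09 (-2.16 to -0.01, unadjusted p = 0.0473). Myog was low in miR-133b-/- replicates 1 and 3 and inside the Control range in replicates 2 and 4, and without replicate 3 its estimate was -0.61 (unadjusted p = 0.181). The mean of the list was -0.27, 0.04, -1.07 and -0.75 in miR-133b-/- replicates 1 to 4 and between -0.45 and 0.40 in Control. The list and Myog thus shared the low value in replicate 3 and differed in replicates 1 and 4.

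**Figure D5:**
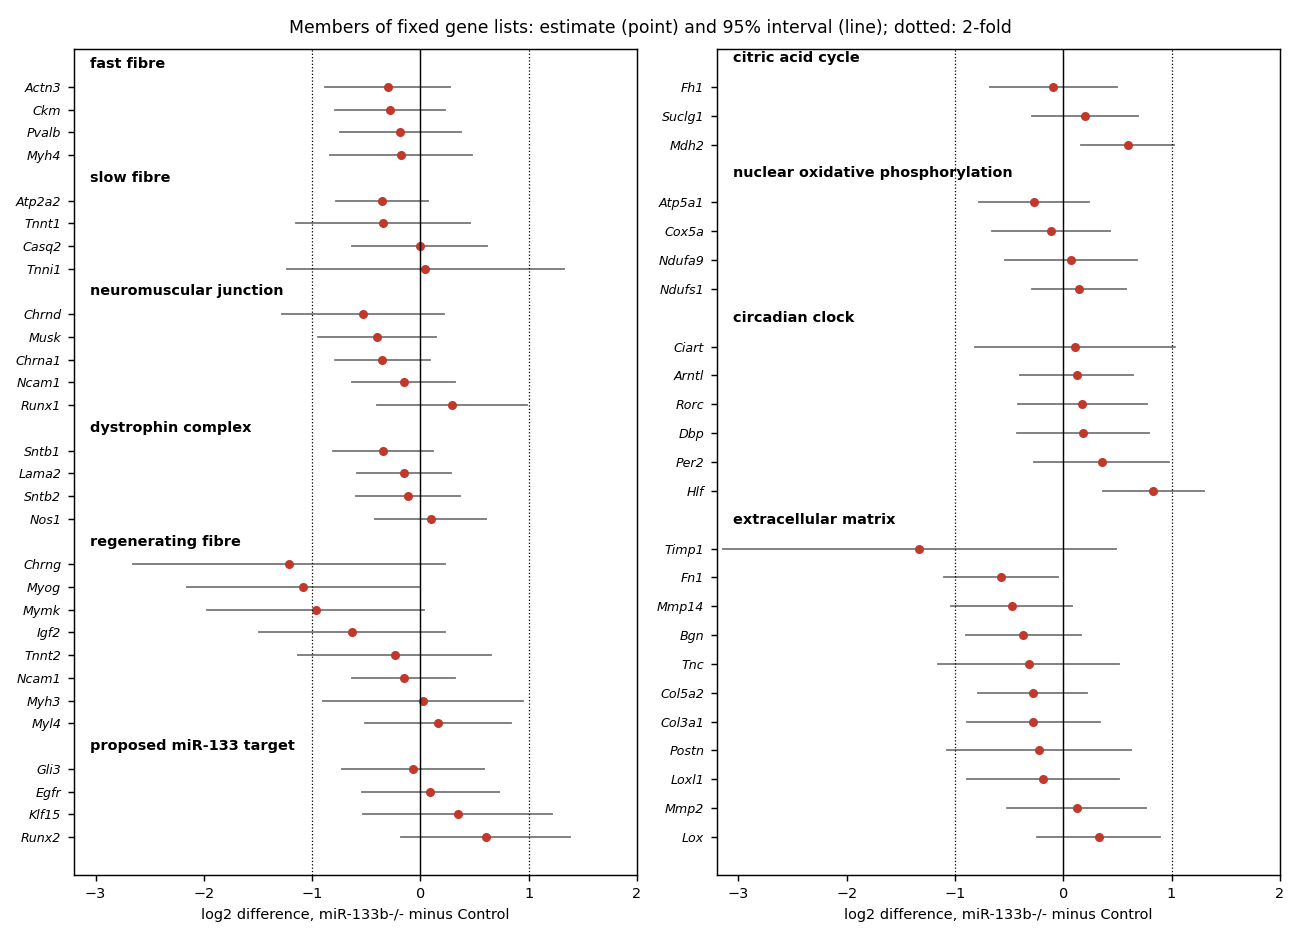
The log2 difference, miR-133b-/- minus Control (x), of each listed member of 10 gene lists (y), with the point as the estimate and the line as the 95% interval; dotted lines mark 2-fold. Every fast fibre gene has an interval inside the dotted lines, and the intervals of low genes such as Chrng and Timp1 reach far beyond them.

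Genes of energy metabolism had medians on both sides of 0. Of 7 listed mitochondrially encoded genes of the list, 4 were positive and 3 negative, with a median of 0.06 against -0.99 in mdx. Besides mt-Atp6, mt-Co2, a subunit of cytochrome c oxidase, had an unadjusted p of 0.0232, at 623, 485, 528 and 463 in Control and 1363, 570, 790 and 719 in miR-133b-/-. The other 5 lay between -0.26 (mt-Nd4) and 0.11 (mt-Nd5), and none of their values separated the groups. The share of listed scaled reads in all 9 genes with mt- symbols, tRNA genes included, was 33.75% ± 3.89 (SD, n = 4) in Control. In miR-133b-/- it was 33.95% ± 3.76 (SD, n = 4). The difference of 0.206 percentage points had an exact permutation p of 0.971 (two-sided, 70 arrangements, smallest possible 0.0286).

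Of 4 nuclear genes of oxidative phosphorylation 2 were positive, with a median of -0.02 and all 4 intervals inside 2-fold. Atp5a1, the alpha subunit of ATP synthase, stood at 18800, 16039, 15629 and 17642 in Control and at 16807, 8642, 15027 and 17905 in miR-133b-/-, a log2 difference of -0.27 (-0.78 to 0.24). Only replicate 2 lay outside the Control range by a large step. The mean of this list was 0.41 in miR-133b-/- replicate 1 and -0.65 in replicate 2, against -0.10 to 0.09 in Control. For the 3 citric acid cycle genes the mean was 0.72, -0.31, 0.28 and 0.25 in miR-133b-/- replicates 1 to 4 and -0.08 to 0.06 in Control, so that 3 libraries lay above Control and 1 below; the median difference was 0.20. Glycolysis had 3 positive of 3, median 0.13, with Pfkm, the muscle phosphofructokinase, at 0.18 (-0.33 to 0.70). Cpt2, which carries fatty acids into mitochondrial oxidation, had a log2 difference of -0.00 (-0.54 to 0.54).

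All 6 listed clock genes had positive estimates, from 0.11 to 0.83, with a median of 0.18 against -0.75 in mdx. For scale, of the 333 genes lower in mdx/miR-133b-/- than in miR-133b-/-, 210 had a positive estimate, and the median over the 333 was 0.10. Hlf was the 1 member at an unadjusted p under 0.05 (8.42% of all genes) and the 1 whose groups did not overlap (4.69% of all genes). The mean of the list was 0.05, 0.32, 0.53 and 0.29 in miR-133b-/- replicates 1 to 4 and -0.07, -0.20, 0.20 and 0.06 in Control. No source used here gives the time of day of dissection, and its part in these values was not tested.

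The microtubule list had 3 of 4 members at an unadjusted p under 0.05 (8.42% of all genes), with Vash2 and Tubb6 negative and Svbp, the partner that Vash2 needs to be stable and active, positive. Some of its members were put on the list after they had been noticed in these data, so their count is no independent evidence. Svbp stood at 85.0, 121, 136 and 151 in Control and at 183, 337, 168 and 167 in miR-133b-/-, a log2 difference of 0.75 (0.16 to 1.35, unadjusted p = 0.0169). The fourth member, Map1b, had -0.22 (unadjusted p = 0.437).

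Immune and matrix genes had mostly negative estimates. For scale, of all 498 genes higher in mdx/miR-133b-/- than in miR-133b-/-, 353 had a negative estimate, with a median of -0.17. Of 16 listed macrophage and monocyte genes, 13 were negative, none had an unadjusted p under 0.05 and 3 had an interval inside 2-fold; the median was -0.18 against 2.61 in mdx. Csf1r, the receptor that macrophages need to survive, stood at 110, 116, 96.5 and 82.8 in Control and at 69, 48.5, 41.9 and 125 in miR-133b-/-, a log2 difference of -0.63 (-1.32 to 0.07). Mrc1, a mannose receptor of resident macrophages, stood at 367, 631, 691 and 581 in Control and at 618, 516, 329 and 556 in miR-133b-/-, a log2 difference of -0.17 (-0.72 to 0.38). The mean of the list was 0.65 in miR-133b-/- replicate 4 and -0.84 in replicate 3, and 0.75 in Control replicate 1 and -0.41 in Control replicate 4. Both groups thus held libraries with high and low macrophage values.

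The 4 antigen presentation genes were all negative, with a median of -0.33, and H2-Eb1, a class II chain, had -0.58 (-1.37 to 0.21). The lymphocyte list rested on Ighm, an immunoglobulin heavy chain, whose values of 1230, 418, 183 and 387 in Control and 543, 190, 1108 and 624 in miR-133b-/- were widely spread in both groups. Its interval ran from -0.87 to 1.35. Oas2, of the interferon response, had 0.11 (-0.60 to 0.81).

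Of 11 extracellular matrix genes 9 were negative and 6 had an interval inside 2-fold, with a median of -0.28 against 1.29 in mdx. Fn1, fibronectin, stood at 693, 891, 1193 and 911 in Control and at 517, 658, 455 and 880 in miR-133b-/-, a log2 difference of -0.57 (-1.10 to -0.05, unadjusted p = 0.0338). Fn1 was below the Control range in replicates 1, 2 and 3 and inside it in replicate 4, and with the GC and length trend removed its estimate was -0.36 (unadjusted p = 0.119). Col5a2, a fibrillar collagen chain, had -0.28 (-0.79 to 0.22). The mean of the list was -0.60, 0.03, -0.93 and 0.19 in miR-133b-/- replicates 1 to 4 and -0.52, 0.07, 0.31 and 0.13 in Control. Replicate 3 of miR-133b-/- lay below every Control, and replicate 1 was close to Control replicate 1.

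Stromal lists did not share this direction. Of 3 fibro-adipogenic progenitor genes 2 were positive, median 0.045, and Lum, the proteoglycan lumican, had -0.24 (-0.77 to 0.29). Both tendon genes were positive, and Thbs4, a matrix protein of tendon and muscle attachments, had 0.22 (-0.34 to 0.78). In the list of amino acid synthesis and transport, 4 of 6 were negative, median -0.14 against 1.15 in mdx. Psat1, of serine synthesis, stood at 106, 207, 215 and 175 in Control and at 133, 137, 60.3 and 91.4 in miR-133b-/-, a log2 difference of -0.75 (-1.42 to -0.09, unadjusted p = 0.0281). Slc7a11, the cystine transporter, had 0.13 (-0.43 to 0.70).

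Genes with a seed match were then set beside those without. No other member of the miR-133 family was examined here, so whether such members act at these sites is unknown. The median log2 difference was -0.05 for the 67 genes with the 7-base match, 0.075 for the 20 with the 8mer, -0.07 for the 712 with a 3′ UTR and no match and -0.07 for all 831. The mdx medians of these sets were 0.932, 0.912, 0.445 and 0.443 in that order. The selection of the listed genes may thus weigh unequally on the sets, and their medians make no allowance for it. Estimates were positive for 30 of 67, 11 of 20 and 301 of 712. None of the 20 genes with an 8mer passed or had an unadjusted p under 0.05, and 4 of the 67 had such a p, a share of 5.97% beside 8.42% of all genes. The intervals of 16 of the 20 lay inside 2-fold, so that for these a 2-fold increase of the RNA lay outside the interval. Protein was not measured.

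Among genes with the 8mer, Mme, the peptidase neprilysin, stood at 114, 229, 125 and 97.0 in Control and at 194, 181, 201 and 173 in miR-133b-/-, a log2 difference of 0.48 (-0.09 to 1.05). Lsp1, an actin-binding protein of leukocytes, stood at 237, 299, 358 and 313 in Control and at 309, 478, 289 and 432 in miR-133b-/-, a log2 difference of 0.30 (-0.20 to 0.80). The groups overlap in both. D430041D05Rik, a gene known by its clone name, had 0.36 (-0.17 to 0.90), and Msr1, a macrophage scavenger receptor with few reads, 0.45 (-0.54 to 1.44). With negative estimates, Ppfia4, a liprin of the presynaptic zone, stood at 54.3, 104, 85.5 and 97.0 in Control and at 21, 87.8, 59.6 and 85.3 in miR-133b-/-, a log2 difference of -0.57 (-1.43 to 0.30). Fam49a had -0.33 (-0.85 to 0.19), Sox4, a developmental transcription factor, -0.27 (-0.91 to 0.37), and Cdh11, a cadherin of mesenchymal cells, -0.34 (-1.16 to 0.48).

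Of 20 proposed targets of the miR-133 family, 4 were listed. Runx2, a transcription factor of bone, stood at 13.6, 26.5, 30.7 and 29.1 in Control and at 32, 35.0, 47.8 and 34.1 in miR-133b-/-. The groups did not overlap, with 32 as the lowest miR-133b-/- value and 30.7 as the highest Control value, and the log2 difference was 0.60 (-0.18 to 1.38, unadjusted p = 0.121). Without Control replicate 1, the lowest library, it was 0.345. Klf15, a metabolic transcription factor, stood at 157, 173, 403 and 552 in Control and at 169, 496, 430 and 435 in miR-133b-/-, a log2 difference of 0.34 (-0.53 to 1.21). Klf15 was low in Control replicates 1 and 2 and in miR-133b-/- replicate 1.

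Egfr, a growth factor receptor with the 2 sites printed above, stood at 245, 411, 377 and 476 in Control and at 591, 530, 254 and 294 in miR-133b-/-. Replicates 1 and 2 lay above the Control range and replicates 3 and 4 within it, and the log2 difference was 0.09 (-0.54 to 0.73). Gli3, a transcription factor of Hedgehog signalling, had -0.07 (-0.72 to 0.59). The intervals of Egfr and Gli3 lay inside 2-fold, while those of Runx2 and Klf15 held a 2-fold increase.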

How the data were processed

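RNA sequencing libraries from whole tibialis anterior of mice were used, 4 Control and 4 miR-133b-/-, grouped by the code in each title; for 14 of the 16 samples of the series the description names another code. RNA was isolated with an Aurum kit of Bio-Rad and treated with DNase, per the labels' protocols. HISAT2, HTSeq and GRCm38 are named in the submitters' processing notes, and none of the sources used here gives their versions, settings or use of strand. The deposited table holds a signal per gene and library. The authors multiplied whole read numbers by 1 factor per library (0.474 to 1 in these 8), per the values themselves: dividing by it gave whole numbers, to within 0.001 read, for 100% of values.

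Log2(value + 1) of the 8 libraries was fitted with limma 3.58.1 in R 4.3.3, with 1 mean per group, a variance trend, no filter, Benjamini-Hochberg adjustment over 831 genes at 0.05 and pointwise 95% intervals. Only these 8 libraries entered because spread differs between the 4 groups of the series; all 16 were an alternative. The fit and its intervals use 1 variance per gene for both groups, although the spread was wider in miR-133b-/-. Differences on this scale understate the change of low genes. Nothing in the labels says that each library is a different animal, so the p-values reflect variation between these libraries, some or all of which may be technical. A single value per library was compared by an exact permutation test. No pairing by replicate number was used in the main fit. Over all genes the correlations of same-numbered deviations ran from -0.144 to 0.089. This does not exclude a pairing, in single genes or otherwise, and a fit with the replicate number as a block was an alternative.

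Symbols, coordinates and 3′ UTRs come from GENCODE M21; each gene's longest 3′ UTR among protein-coding transcripts was searched. The genes and lists were chosen with earlier results of these data known. The genes named were the 6 smallest p-values in each direction, the 4 largest differences in each at a mean of 50 or more, the member with the smallest p of each list (and, with 5 or more members, the narrowest interval), every proposed target, the 4 narrowest and 4 widest intervals, the 4 largest and 4 smallest SD ratios at a mean of 100 or more, and the 4 genes with an 8mer and the smallest p in each direction; predicted models were left out of all but the last.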

Additional observations from a re-analysis of the deposited data

Results flagged for a closer look

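Of 132 groups of 4 values examined for the named results, 6 had a library far from the other 3 (Dixon's test, where chance gives about 1 in 20). Of these, 3 were in miR-133b-/- replicate 1: Psmd12 at 10056 scaled reads, above the others at 2830 to 3422, D430041D05Rik at 95, below the others at 152 to 162, and Klf15 at 169, below the others at 430 to 496. Replicate 4 of miR-133b-/- was high for mt-Atp6, at 340 against 245 to 249, and for Vash2, at 70.1 against 29.98 to 33.8. Control replicate 1 was low for Ncam1, at 149 against 208 to 222.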

How the results depend on the processing

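Under 21 alternatives 0 genes passed in each, with the smallest adjusted p from 0.166 to 0.951. Between 34 and 109 genes had an unadjusted p under 0.05, and 450 to 654 had a 95% interval inside 2-fold. The 450 came from the fit at a mean of 100 or more, of fewer genes tested, and the 654 from a pseudocount of 10. With scaling to the total of listed reads the count inside 2-fold was 467. At an unadjusted p under 0.05 were 37 genes with scaling to the total of listed reads, 106 with library quality weights and 46 (of fewer genes tested) at a mean of 100 or more, besides the counts without single libraries given with the results. With the replicate number as a replicate block 0 genes passed, 66 had such a p and 563 an interval inside 2-fold; with the GC and length trend also removed the counts were 0, 67 and 605, and the block changed no call. The 2 planned count-model tests were left out by choice, because the deposited values are scaled. Whole reads were recovered, and limma-voom was run on them instead. The median log2 difference over all genes moved from -0.07 to 0.03 once the trend with GC and length was taken out, with or without the block, and to 0.01 at a mean of 100 or more, where fewer genes are tested.

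Of 64 named genes none passed in any of 1323 refits and 52 kept their sign in all. The sign changed with the GC and length trend removed, alone and with the block, for Gli3 (0.08), Cpt2 (0.10) and Lama2 (0.00), with quality weights for Egfr (-0.23), Cpt2 (0.17) and Atp6v0d2 (0.17), with limma-voom for Cpt2 (0.009) and with relative log expression scaling for Cpt2 (0.023) and Abcd2 (0.004). Without single replicates the estimates ranged from -0.10 to 0.038 for Abcd2, -0.53 to 0.04 for Cdh11, -0.34 to 0.061 for Cox5a, -0.20 to 0.26 for Cpt2, -0.10 to 0.30 for Egfr and -0.29 to 0.11 for Gli3. They ranged from -0.17 to 0.74 for Ighm, -0.36 to 0.024 for Mrc1, -0.16 to 0.31 for Oas2 and -0.14 to 0.47 for Psmd12. The difference in the mitochondrially encoded share was -0.326 percentage points without mt-Nd1 and ranged from -1.55 to 1.53 without single replicates. The causes were not tested. Total depth is unknown, and counting error weighs most on genes with few reads.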

Other observations

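The groups did not overlap in 39 of 831 genes (4.69%), 23 above Control and 16 below. The following, outside the lists, are named after their values were seen; none passed (limma, adjusted over all 831 genes). Capn3, the muscle calpain whose loss causes a limb-girdle dystrophy, stood at 4411, 4004, 4189 and 4674 scaled reads in Control and at 6492, 7274, 6738 and 4751 in miR-133b-/-, a log2 difference of 0.53 (95% interval 0.11 to 0.96). Mpc2, a subunit of the mitochondrial pyruvate carrier, stood at 2563, 2342, 2548 and 2785 in Control and at 5766, 3925, 3535 and 2933 in miR-133b-/-, a log2 difference of 0.62 (0.14 to 1.09). Psmc2, an ATPase of the proteasome base, had 0.61 (0.15 to 1.06).

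With lower values in miR-133b-/-, Gprc5b, an orphan receptor, stood at 414, 406, 403 and 431 in Control and at 212, 318, 313 and 272, a log2 difference of -0.58 (-1.03 to -0.14). Nox4, an oxidase that makes hydrogen peroxide, had -0.78 (-1.39 to -0.17), and Hk1, a hexokinase, -0.59 (-1.12 to -0.06).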
